A study of Mus musculus with 31 samples.

Results

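Genes of the cornified envelope and of the upper layers of keratinized, stratified epithelium were followed through mammary hyperplasias and tumors of K5ΔNβcat mice. They were chosen by gene symbol: every gene whose symbol starts with Sprr or Lce, and 26 named genes for other envelope proteins, their cross-linking, the upper desmosomes, skin proteases and regulators. The array carried 50 such genes of 18193 with a single-symbol probe set, or 63 of 45037 probe sets. Each gene is given by its brightest probe set, and values on single arrays are given for the 45 genes whose highest tissue group median was at least 100. The genes were selected with results of these arrays known, so the counts below describe the list and set it apart from no other genes.

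Keratinocytes that leave the basal layer of the epidermis stop dividing and assemble the cornified envelope beneath the plasma membrane. Transglutaminases cross-link precursor proteins such as involucrin, loricrin, the small proline-rich proteins and the late cornified envelope proteins into this shell, filaggrin bundles the keratin filaments, and proteases process the precursors and later release the dead cells. Many of the precursor genes lie side by side in the epidermal differentiation complex, which is on chromosome 3 in the mouse. The normal mammary gland is a bilayered ductal epithelium in fat and does not keratinize.

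K5ΔNβcat mice carry an N-terminally truncated, stabilized β-catenin whose expression is driven by the keratin 5 promoter, which is active in basal epithelial cells, and their mammary glands develop hyperplasias and tumors. The arrays of whole tissue came from control mammary glands (n = 4), small hyperplasias (n = 5), large hyperplasias (n = 5) and tumors (n = 11). Basal mammary cells sorted from control mice (n = 3) and from K5creMycL/L mice, in which keratin 5-driven Cre deletes Myc (n = 3), were measured apart from the tissue after another RNA amplification. All samples were labelled C57BL6, whereas the methods of the study give a mixed 129SV/C57BL6 background. Ages of the tissue donors are not given in the sources used here. Sorted cells were pooled from several mice per sample, and the methods describe the pools as independent, so their p-values reflect spread between pools. For the tissue samples separate donor animals are not stated in the labels. Spread between tissue samples, which may be technical, is what their p-values reflect.

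MAS5 signals are linear intensities scaled to a target of 100 on each array, and the study took a signal of 30 as its background limit. Differences are given in log2(signal + 16) with the standard error (SE) of the limma fit, and a gene was called at an adjusted p below 0.05. Folds against a group with all its arrays under 30 are bounds, the geometric mean signal of the brighter group over 30. Array medians of all probe sets were 23.9 to 32.9 in tissue and lower in sorted cells (13.2 to 19.7). Over all probe sets tested the median log2 difference stayed within 0.1 of 0 in every comparison.

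Control tissue held signal for few of these genes, hyperplasias for most and tumors for nearly all. In whole tissue fewer cells of a type and less RNA per cell cannot be told apart. The number of the 50 genes with a signal of at least 30 was 5 to 10 per control array, 33 to 44 per small hyperplasia, 34 to 43 per large hyperplasia and 45 to 49 per tumor. The genes differed in the steps at which they were called. Sprr1a, Tchh, Gsdma, Grhl1 and Dsg1a were called higher in both hyperplasia stages than in control tissue and were not called between large hyperplasias and tumors. Lor, the Lce3 genes, Sprr1b, Sprr2f, Flg, Rptn and Casp14 were higher in every tumor than in every large hyperplasia. Of these, Lce3c, Lce3f, Sprr1b, Flg and Rptn were also called higher in both hyperplasia stages than in control tissue. Sbsn, Dmkn, Krtdap, Asprv1 and Klk7 were called higher at each step, from control tissue through small and large hyperplasias to tumors. Tgm5 was called higher in hyperplasias and lower in tumors than in large hyperplasias.

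Against control tissue, 46 genes were called higher in tumors, none was called lower (nor at an unadjusted p below 0.05), Cdsn was not called and 3 genes (Sprr3, Lce1g and Lce1l) stayed too low to be tested. Of all 24086 probe sets tested, 33.2% were called higher and 35.9% lower. The median log2 difference over the 50 genes was 4.99, and over all probe sets tested it was -0.03. In 46 genes every tumor lay above every control array, among them 45 of the 47 tested, while this held for 19.7% of all probe sets tested. For 33 called genes all 4 control arrays were under 30 and a bound could be given, and the bounds ran from at least 2.32-fold for Tgm3 to at least 127-fold for Calm4. Adjusted p-values of the called genes lay between 2.2e-18 and 1.7e-05.

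Against control tissue, large hyperplasias had 34 genes called higher, 4 not called (Lor, Cdsn, Lce1d and Sprr2f) and 12 too low to be tested, with 25.6% of all probe sets called higher and 20.1% lower. Small hyperplasias had 34 called higher, 5 not called (Lor, Cdsn, Lce1c, Lce1d and Lce3b) and 11 not tested, with a background of 16.8% higher and 14.4% lower. No gene was called lower in either stage, nor at an unadjusted p below 0.05. The medians over the 50 genes were 2.00 and 1.87 log2 units, against 0.06 and 0.00 over all probe sets tested. The 3 comparisons against control tissue share the 4 control arrays and are not independent of each other.

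The comparison of tumors with large hyperplasias uses no control array. It called 40 genes higher, 1 lower (Tgm5) and left 6 not called (Sprr1a, Tchh, Cdsn, Gsdma, Grhl1 and Dsg1a) and 3 untested, where 21% of all probe sets were called higher and 32.9% lower. In 32 genes every tumor exceeded every large hyperplasia, which held for 8.93% of all probe sets tested. The median difference over the 50 genes was 2.34 log2 units, and -0.09 over all probe sets tested. Between large and small hyperplasias, 9 of 40 tested genes were called higher and none lower, while 5.01% of all probe sets were called higher and 4.62% lower. At an unadjusted p below 0.05, 1 gene was lower there, Lce3b. The 9 genes were Sprr1a, Krtdap, Dmkn, Sbsn, Klk5, Klk7, Asprv1, Cdsn and Gsdma, and they included no Lce gene and no Sprr2 gene. These calls depended on the test: the methods' t-test with adjustment called none, and limma with no offset called 2.

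**Figure D1:**
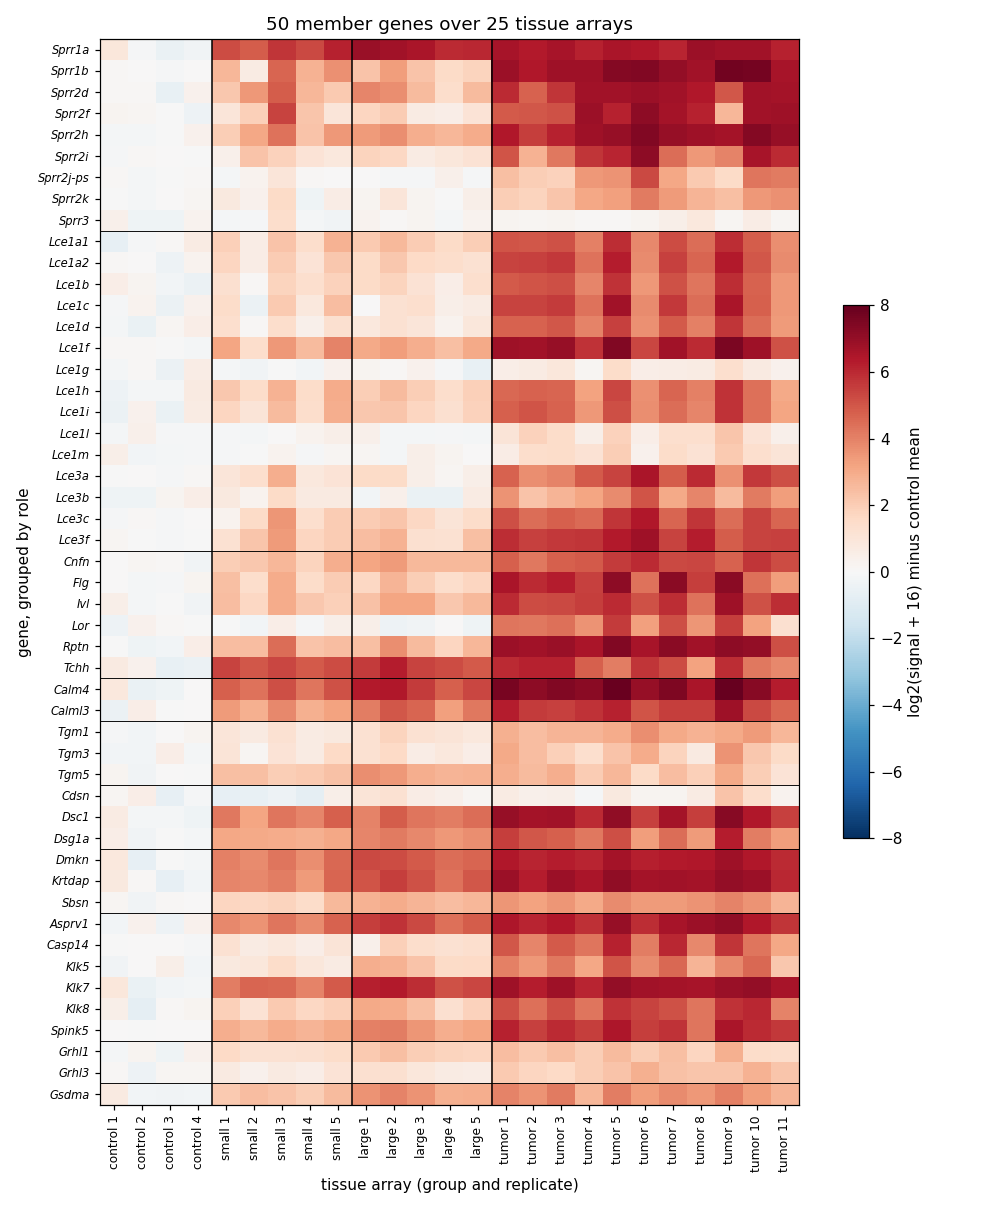
Heat map of log2(signal + 16) minus the mean of the control arrays for the 50 genes (rows, grouped by role) on the 25 tissue arrays (columns, with vertical lines between control tissue, small hyperplasias, large hyperplasias and tumors). Red marks a signal above control. Sprr1a, Tchh and Klk7 are red from the small hyperplasias on, while Lor and most Sprr2 and Lce genes turn dark red only in the tumor columns.

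Promoters of 43 of the 50 genes were found in RefSeq, as 48 entries on the mouse build GRCm38.p6, and none was found for Calml3, Dsc1, Dsg1a, Gsdma, Lce1f, Spink5 and Sprr2j-ps. The 250 bases before each start site were searched on both strands for TGANTCA, which covers the site of the AP-1 factors that act throughout epidermal differentiation, for AACCGGTT, the site of the grainyhead-like factors such as Grhl1 and Grhl3, and for TATAAA, the TATA box. TGANTCA was present in 16 of the 48 entries (33.3%), belonging to 14 genes, and in 6.75% of all 32851 promoters of this length. TATAAA was present in 16 entries (33.3%), against 12.4% of all promoters. AACCGGTT was present in none of the 48 and in 0.116% of all. Matches of different motifs did not overlap in these entries. The genes with TGANTCA were Lor, Flg, Rptn, Ivl, Sprr1a, Sprr1b, 5 Sprr2 genes, Sbsn, Dmkn and Krtdap. The Sprr2 genes are close copies and their promoters are not independent entries.

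The promoters of 5 genes are shown, 1 for a gene that was high from the hyperplasias on (Sprr1a) and 4 for genes that were high in tumors (Sprr2f, Lce3a, Lor and Flg), with every match to TGANTCA or TATAAA in capitals. They lie at chr3:92485882-92486131 on the minus strand, chr3:92364937-92365186 on the plus strand, chr3:92926231-92926480 on the minus strand, chr3:92083143-92083392 on the minus strand and chr3:93273296-93273545 on the plus strand, and each ends at the base before the start site.
Sprr1a: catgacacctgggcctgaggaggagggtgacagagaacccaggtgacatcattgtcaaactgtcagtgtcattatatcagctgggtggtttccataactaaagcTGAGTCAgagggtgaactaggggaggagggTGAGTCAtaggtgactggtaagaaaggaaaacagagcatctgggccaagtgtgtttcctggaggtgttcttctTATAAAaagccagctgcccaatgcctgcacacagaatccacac
Sprr2f: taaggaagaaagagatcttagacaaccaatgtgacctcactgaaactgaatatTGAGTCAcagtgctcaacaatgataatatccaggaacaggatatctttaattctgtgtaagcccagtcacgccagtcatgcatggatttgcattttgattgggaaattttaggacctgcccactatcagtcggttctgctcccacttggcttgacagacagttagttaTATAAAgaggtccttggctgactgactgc
Lce3a: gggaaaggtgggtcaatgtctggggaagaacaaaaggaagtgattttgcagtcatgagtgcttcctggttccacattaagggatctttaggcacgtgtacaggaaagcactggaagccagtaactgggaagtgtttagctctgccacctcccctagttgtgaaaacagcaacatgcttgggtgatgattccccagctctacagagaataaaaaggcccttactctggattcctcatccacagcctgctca
Lor: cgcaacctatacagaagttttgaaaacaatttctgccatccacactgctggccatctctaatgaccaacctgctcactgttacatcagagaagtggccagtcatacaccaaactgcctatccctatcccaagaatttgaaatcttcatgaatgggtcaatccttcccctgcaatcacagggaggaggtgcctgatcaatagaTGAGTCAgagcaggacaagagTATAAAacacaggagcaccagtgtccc
Flg: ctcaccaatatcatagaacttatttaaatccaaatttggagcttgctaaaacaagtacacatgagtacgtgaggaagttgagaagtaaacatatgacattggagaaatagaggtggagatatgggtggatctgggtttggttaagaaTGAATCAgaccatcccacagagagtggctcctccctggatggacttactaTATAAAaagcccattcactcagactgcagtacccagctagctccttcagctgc
Sprr1a held 2 matches to TGANTCA, which began 146 and 116 bases before the start site, and Sprr2f, Lor and Flg held 1 each, at 197, 48 and 103 bases. TATAAA began 43, 29, 27 and 53 bases before the start in Sprr1a, Sprr2f, Lor and Flg, and Lce3a had no match to any of the 3 motifs. A match is a description of the letters and not evidence of a bound site.

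Among the small proline-rich proteins, which are substrates of the transglutaminases, Sprr1a and Sprr1b lie on either side of Sprr3 and differed in their values between large hyperplasias and tumors. Sprr1a read 47.4, 16.02, 7.91 and 12.8 in control tissue, 1279, 968, 1781, 1345 and 2392 in small hyperplasias, 4095, 3607, 3121, 2092 and 2223 in large hyperplasias and 2329 to 3866 in tumors (median 3221). All hyperplasias lay above all control arrays, and tumors and large hyperplasias overlapped. Tumors differed from large hyperplasias by 0.05 (SE 0.20, adjusted p = 0.84), and large from small hyperplasias by 0.98 (SE 0.24, adjusted p = 0.012). Sprr1b read 2.32, 1.51, 0.521 and 1.63 in control tissue, 92.8, 11.1, 425, 107 and 209 in small hyperplasias, 69.05, 162, 70.4, 35.6 and 43.95 in large hyperplasias and 1451 to 3694 in tumors (median 1953). Every tumor was above every hyperplasia, and small hyperplasia 3 was the highest of the small ones. The tumors exceeded large hyperplasias by 4.77 (SE 0.39, adjusted p = 7.7e-10) and control tissue at least 75.2-fold, whereas large and small hyperplasias overlapped (-0.63, SE 0.45, adjusted p = 0.4). Without small hyperplasia 2, Sprr1b was called lower in large than in small hyperplasias.

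The Sprr2 genes, a cluster of close copies next to Sprr1b, also had their highest signals in tumors. Sprr2d read 20.6, 20.6, 6.86 and 27.1 in control tissue, 136, 358, 948, 198 and 129 in small hyperplasias, 502, 427, 179, 71.98 and 179 in large hyperplasias and 873 to 3847 in tumors (median 3364). Sprr2f read 11.02, 9.98, 6.62 and 1.63 in control tissue, 29.1, 69.3, 948, 93.1 and 28.9 in small hyperplasias, 59.8, 78.7, 20.5, 16.7 and 32.7 in large hyperplasias and 130.1 to 3245 in tumors (median 1651). Tumors overlapped with no large hyperplasia in either gene, although small hyperplasia 3 was above the lowest tumor in both, with 948 for Sprr2f against 130.1 in tumor 9. The difference between tumors and large hyperplasias was 3.38 (SE 0.43, adjusted p = 6.3e-07) for Sprr2d and 4.63 (SE 0.62, adjusted p = 1.3e-06) for Sprr2f. Sprr2f was called in small hyperplasias against control (2.29, SE 0.77, adjusted p = 0.024), a call that was lost without small hyperplasia 3 or control array 4, but not in large ones (1.2, SE 0.77, adjusted p = 0.2), and large and small hyperplasias did not differ by the test (-1.09, SE 0.72, adjusted p = 0.36). Sprr2h read 1.77, 1.75, 3.39 and 8.87 in control tissue, 61.96, 155, 391, 80.1 and 199 in small hyperplasias, 198, 241, 132, 106 and 139.9 in large hyperplasias and 909.7 to 3331 in tumors (median 2185). Sprr2i read 0.755, 2.87, 1.73 and 1.24 in control tissue, 6.88, 70.9, 48.6, 21.4 and 15.5 in small hyperplasias, 45.8, 39.7, 12.4, 16.7 and 23.6 in large hyperplasias and 103 to 2538 in tumors (median 565). Sprr2h was above all control arrays in each hyperplasia, and Sprr2i was under 30 in 6 of the 10.

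Sprr2j-ps and Sprr2k were near background outside tumors. Sprr2j-ps read 3.97, 0.868, 2.63 and 3.91 in control tissue, 0.870, 7.04, 20.4, 3.69 and 2.98 in small hyperplasias, 3.05, 1.98, 1.75, 9.45 and 1.49 in large hyperplasias and 38.1 to 728 in tumors (median 144), and the pseudogene was under 30 in every hyperplasia. Sprr2k read 7.70, 5.61, 9.01 and 11.3 in control tissue, 25.02, 14.9, 53.9, 3.19 and 20.7 in small hyperplasias, 12.9, 30.6, 12.03, 7.37 and 17.4 in large hyperplasias and 68.97 to 412 in tumors (median 196). Both were called higher in tumors than in large hyperplasias, by 3.01 (SE 0.43, adjusted p = 3.2e-06) and 2.57 (SE 0.31, adjusted p = 3.4e-07). Sprr3, an internal-epithelium member of the family, did not pass the background limit in tumors, where it read 8.26 to 25.4, and its single value over 30 was 44.1 in small hyperplasia 3. Of the family of 9, 8 were called higher in tumors than in control tissue and 7 than in large hyperplasias. Over all probe sets tested the shares called higher were 33.2% and 21%. The Sprr2h probe set carries a suffix for probes that can match several transcripts, and the Sprr2 genes are similar enough that signal may be shared between them.

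**Figure D2:**
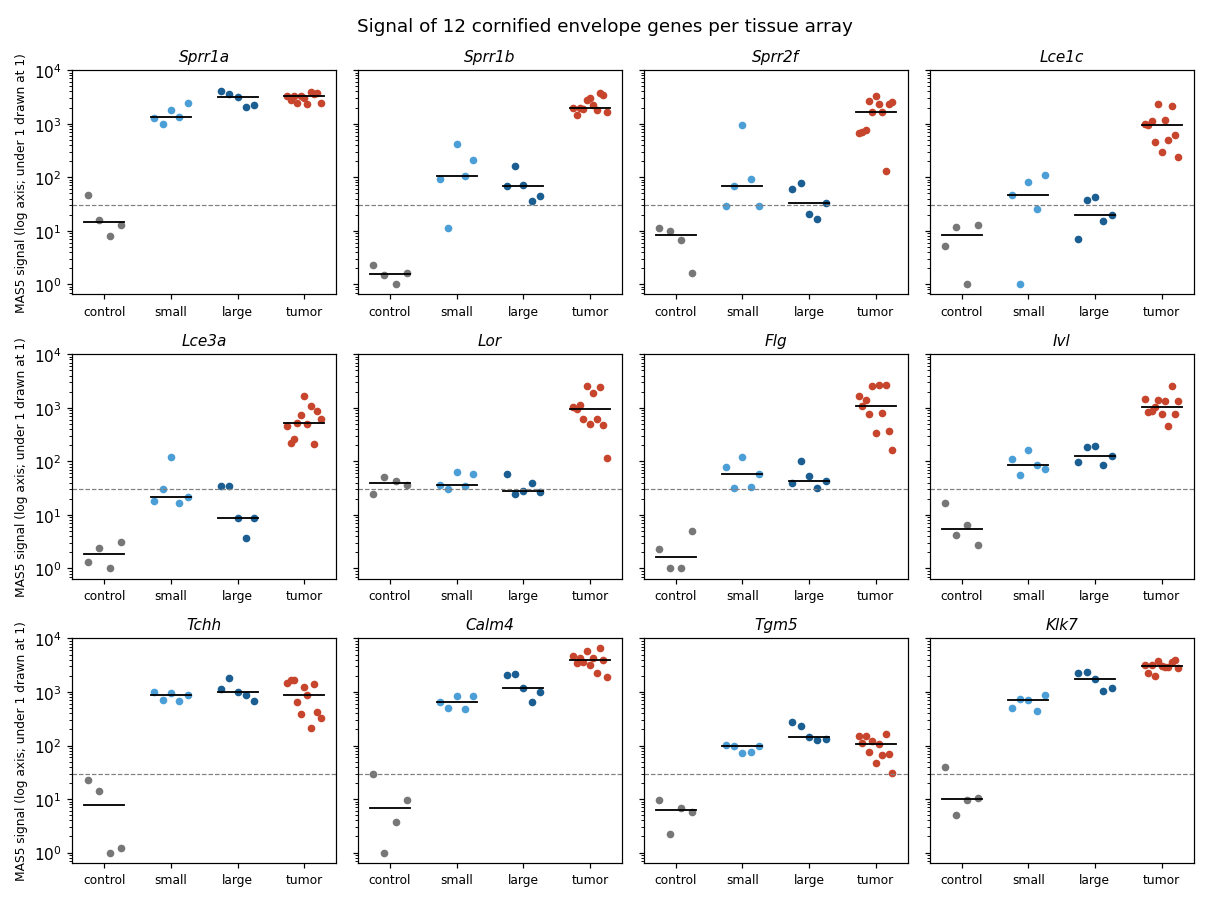
MAS5 signal (log axis, values under 1 drawn at 1) of 12 genes on each tissue array, by group, with the group median as a black bar and the background limit of 30 dashed. Sprr1a, Tchh and Klk7 are high in all 10 hyperplasias, while Lor, Lce3a and Flg separate the 11 tumors from every hyperplasia, each by its brightest probe set.

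Late cornified envelope (Lce) proteins are added to the envelope at the end of its assembly, and their genes form clusters within the complex. Of 15 on the array, 13 were called higher in tumors than in control tissue and the same 13 than in large hyperplasias, and 12 of these had no overlap with large hyperplasias. Over all probe sets tested, 33.2% and 21% were called higher in these comparisons. Every tumor exceeded every large hyperplasia in 8.93%. Lce1f read 3.81, 4.56, 2.35 and 0.959 in control tissue, 149, 34.9, 192, 93.8 and 277 in small hyperplasias, 137, 179, 127, 83.8 and 137 in large hyperplasias and 619 to 3540 in tumors (median 1984). A second Lce1f probe set stayed under 30 in all hyperplasias, at 7.69 to 20.9 in large ones against 0.687 to 18.4 in control tissue. Lce1a1 read 2.96, 12.7, 15.4 and 31.7 in control tissue, 98.9, 29.3, 129, 63.2 and 186 in small hyperplasias, 114, 169, 108, 72.1 and 101 in large hyperplasias and 384 to 1776 in tumors (median 939). Lce1a2 read 11.1, 9.90, 3.57 and 14.6 in control tissue, 66.1, 23.1, 87.9, 39.4 and 96.8 in small hyperplasias, 56.3, 95.5, 62.3, 51.2 and 42.2 in large hyperplasias and 327 to 2028 in tumors (median 1072). Tumors were above large hyperplasias throughout, by 3.52 (SE 0.36, adjusted p = 2.3e-08) for Lce1f, 2.76 (SE 0.34, adjusted p = 3.7e-07) for Lce1a1 and 3.53 (SE 0.35, adjusted p = 1.5e-08) for Lce1a2.

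Lce1b read 20.1, 12.97, 5.61 and 2.07 in control tissue, 45.2, 11.1, 71.05, 48.4 and 74.2 in small hyperplasias, 56.5, 72.1, 40.5, 20.6 and 48.3 in large hyperplasias and 259 to 1479 in tumors (median 729.6). Lce1c read 5.08, 11.7, 0.580 and 12.8 in control tissue, 46.8, 0.869, 82.7, 25.01 and 109 in small hyperplasias, 7.10, 38.3, 42.2, 15.2 and 20.04 in large hyperplasias and 239 to 2359 in tumors (median 943). Lce1d read 9.36, 3.48, 16.5 and 25.9 in control tissue, 56.7, 14.1, 60.99, 22.8 and 54.6 in small hyperplasias, 34.6, 51.9, 40.3, 18.7 and 36.9 in large hyperplasias and 291 to 1462 in tumors (median 732). These 3 were near or under the background limit in many hyperplasias and clear of it in every tumor. In large hyperplasias Lce1b was called against control (1.27, SE 0.43, adjusted p = 0.019), Lce1d was not (0.84, SE 0.38, adjusted p = 0.072) and Lce1c was too low to be tested. Without control array 4, Lce1b was no longer called there and Lce1d was, as it was without large hyperplasia 4. Tumors exceeded large hyperplasias by 3.43 (SE 0.35, adjusted p = 2.5e-08), 4.37 (SE 0.46, adjusted p = 3.5e-08) and 3.70 (SE 0.31, adjusted p = 9.6e-10) for Lce1b, Lce1c and Lce1d.

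Lce1h read 5.62, 9.91, 10.1 and 31.3 in control tissue, 113, 64.8, 182, 63.4 and 212 in small hyperplasias, 98.4, 148, 99.1, 61.7 and 93.2 in large hyperplasias and 222 to 1594 in tumors (median 681). Lce1i read 10.7, 30.5, 9.60 and 41.5 in control tissue, 106, 57.6, 192, 80.4 and 254 in small hyperplasias, 145, 156, 108, 71.9 and 115 in large hyperplasias and 310.0 to 2049 in tumors (median 788). Both were above all control arrays in every hyperplasia and again higher in tumors, by 2.41 (SE 0.35, adjusted p = 4.0e-06) and 2.57 (SE 0.35, adjusted p = 1.6e-06). Lce1m was called higher in tumors at a low level, 8.04 to 61.98, and Lce1g and Lce1l, at 12.3 to 54.5 and 8.15 to 66.7, could not be tested. The probe sets of Lce1a1, Lce1d, Lce1h, Lce1i and Lce1m carry a suffix for probes that can match several transcripts, so these genes may share signal.

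The Lce3 genes lie in a cluster of their own. Lce3a read 1.32, 2.37, 0.549 and 3.09 in control tissue, 18.4, 30.1, 120.0, 16.5 and 22.03 in small hyperplasias, 34.6, 35.4, 8.92, 3.73 and 8.68 in large hyperplasias and 213 to 1637 in tumors (median 513). Lce3c read 5.29, 7.66, 5.17 and 6.99 in control tissue, 10.5, 48.5, 239, 39.7 and 75.4 in small hyperplasias, 75.2, 85.98, 52.9, 29.6 and 44.3 in large hyperplasias and 482 to 1893 in tumors (median 598). Small hyperplasia 3 was the highest of its group for both, and neither gene overlapped between tumors and large hyperplasias. Lce3b read 8.98, 9.24, 20.8 and 30.3 in control tissue, 38.3, 22.5, 75.5, 37.3 and 36.2 in small hyperplasias, 11.6, 26.7, 6.58, 6.07 and 35.2 in large hyperplasias and 138 to 1037 in tumors (median 305). Lce3f read 11.3, 7.98, 6.62 and 8.13 in control tissue, 41.4, 96.2, 238, 65.01 and 84.2 in small hyperplasias, 120.5, 152, 43.01, 41.04 and 113 in large hyperplasias and 684 to 2706 in tumors (median 1216). Tumors exceeded large hyperplasias by 4.13 (SE 0.39, adjusted p = 7.9e-09) for Lce3a, 3.45 (SE 0.32, adjusted p = 7.6e-09) for Lce3b, 3.43 (SE 0.35, adjusted p = 3.2e-08) for Lce3c and 3.72 (SE 0.30, adjusted p = 7.9e-10) for Lce3f. Lce3f and Lce3c were also called in large hyperplasias against control tissue, by 2.03 (SE 0.38, adjusted p = 9.6e-05) and 1.67 (SE 0.44, adjusted p = 0.0032). With signals floored at 30 before the test, Lce3c, Flg, Lce1a2, Lce1b and Sprr1b were no longer called in large hyperplasias against control. The probe sets of Lce3b and Lce3c also carry the suffix for probes that can match several transcripts.

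Of the other envelope precursors, loricrin (Lor), the main protein of the mature epidermal envelope, was called higher in tumors and in neither hyperplasia stage. Lor read 24.5, 51.9, 42.1 and 36.02 in control tissue, 36.7, 30.5, 62.6, 35 and 58.2 in small hyperplasias, 58.4, 25.05, 28.4, 39.2 and 26.7 in large hyperplasias and 117 to 2603 in tumors (median 963). On this probe set hyperplasias and control tissue overlapped and every tumor was above both. Tumors exceeded control tissue by 4.00 (SE 0.47, adjusted p = 5.1e-08) and large hyperplasias by 4.10 (SE 0.44, adjusted p = 5.2e-08), while large and small hyperplasias differed from control by -0.10 (SE 0.54, adjusted p = 0.9) and 0.14 (SE 0.54, adjusted p = 0.87). A further Lor probe set gave 4.86 (adjusted p = 2.9e-07) for tumors against large hyperplasias, and another stayed under 30 on all tissue arrays. On the further one the lowest tumor read 61.8 and the highest small hyperplasia 80.5, so these groups overlapped there. Filaggrin (Flg) binds keratin filaments in the uppermost layers. Flg read 2.31, 0.163, 0.376 and 4.91 in control tissue, 78.9, 32.01, 122, 32.8 and 57.6 in small hyperplasias, 39.4, 102, 53.8, 31.2 and 43.6 in large hyperplasias and 164 to 2697 in tumors (median 1096). Repetin (Rptn) is a relative of filaggrin. Rptn read 4.87, 0.803, 2.45 and 15.3 in control tissue, 101, 99.7, 449, 85.8 and 99.2 in small hyperplasias, 96.7, 266, 104, 55 and 116 in large hyperplasias and 729 to 3614 in tumors (median 2467). Tumors were separate from all hyperplasias for Rptn and for Flg, at 4.16 (SE 0.34, adjusted p = 6.8e-10) and 3.88 (SE 0.48, adjusted p = 4.6e-07) above the large hyperplasias. The other 2 Rptn probe sets stayed under 30 on all tissue arrays.

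Ivl read 16.4, 4.30, 6.52 and 2.72 in control tissue, 112, 55.5, 161, 86.7 and 71.4 in small hyperplasias, 99.3, 186, 190.3, 86.5 and 125 in large hyperplasias and 457 to 2521 in tumors (median 1041). This is involucrin, an early scaffold of the envelope, and on this probe set every hyperplasia and tumor was above all control arrays. A second Ivl probe set stayed under 30 in all hyperplasias and was not tested there against control tissue. It read 1.46 to 22.9 in large hyperplasias and 0.506 to 1.77 in control tissue. Cnfn read 21.3, 24.8, 23.4 and 14.9 in control tissue, 127, 146, 215, 113 and 267 in small hyperplasias, 317, 379, 203, 203 and 209.8 in large hyperplasias and 679.7 to 2272 in tumors (median 1359). Cornifelin (Cnfn) and Ivl kept tumors apart from large hyperplasias, by 2.27 (SE 0.22, adjusted p = 1.5e-08) and 2.87 (SE 0.27, adjusted p = 9.4e-09). Tchh read 22.9, 14.1, 0.160 and 1.2 in control tissue, 997, 718, 959, 691 and 867 in small hyperplasias, 1148, 1844, 1001, 891 and 686 in large hyperplasias and 208 to 1697 in tumors (median 865). Trichohyalin (Tchh), which hardens the inner root sheath of hair, overlapped between hyperplasias and tumors, and 5 of the 11 tumors read less than every hyperplasia. Tumors differed from large hyperplasias by -0.47 (SE 0.39, adjusted p = 0.33), which was not called. Of 17 measured genes of the hair shaft and inner root sheath, all were called in large hyperplasias, above control tissue, as Tchh was. In tumors 14 of them were called lower than in large hyperplasias, 1 was called higher and 2 were not called. Krt25 and Krt71 were among the 14, and the median log2 difference over the 17 was -2.27. With control tissue as reference, tumors had 9 called higher, 4 not called and 4 not tested. Of all probe sets tested, 25.6% were called above control tissue in large hyperplasias and 33.2% in tumors. From large hyperplasias to tumors, 32.9% were called lower. Summed over the 17 hair genes, control arrays read 201 to 314, small hyperplasias 3243 to 7099, large hyperplasias 5638 to 13467 and tumors 760 to 9173. Their part in the Tchh signal was not tested.

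Calm4 and Calml3 encode calmodulin-like proteins of differentiating keratinocytes, and both were called higher than control tissue at each stage. Calm4 read 29.1, 0.932, 3.80 and 9.63 in control tissue, 658, 502, 856, 474 and 837 in small hyperplasias, 2053, 2126, 1195, 664 and 982 in large hyperplasias and 1941 to 6550 in tumors (median 3898). Calml3 read 4.68, 25.5, 12.9 and 13.4 in control tissue, 300.3, 193, 405, 191 and 259.8 in small hyperplasias, 473, 906, 714, 264 and 517 in large hyperplasias and 728 to 3185 in tumors (median 1361). Hyperplasias exceeded control tissue on every array, and tumors overlapped with the brightest large hyperplasias. Calm4 rose by 4.73 (SE 0.34, adjusted p = 2.1e-10) in small hyperplasias, 5.70 (SE 0.34, adjusted p = 3.0e-12) in large hyperplasias and 7.26 (SE 0.30, adjusted p = 1.7e-16) in tumors. The step from large hyperplasias to tumors was 1.56 (SE 0.28, adjusted p = 5.0e-05) for Calm4 and 1.41 (SE 0.28, adjusted p = 0.00015) for Calml3, and the step from small to large hyperplasias was not called for either. That step was 0.97 (SE 0.32, adjusted p = 0.058) for Calm4 and 0.99 (SE 0.32, adjusted p = 0.051) for Calml3. Without large hyperplasia 4 it was called for both, as it was for Calm4 without small hyperplasia 5 and for Calml3 without small hyperplasia 3.

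The transglutaminases, which cross-link the envelope, were called in opposite directions between large hyperplasias and tumors. Tgm1 read 22.1, 18.8, 24.3 and 31.2 in control tissue, 62.6, 50.8, 77.7, 46.8 and 52.2 in small hyperplasias, 77.9, 121, 77.4, 67.03 and 54.2 in large hyperplasias and 209.5 to 502 in tumors (median 264). Tumors were above every large hyperplasia, by 1.71 (SE 0.16, adjusted p = 8.0e-09). Tgm5 read 9.47, 2.25, 6.88 and 5.85 in control tissue, 102, 99.4, 71.5, 76.5 and 96.8 in small hyperplasias, 275, 229.6, 147, 128 and 133 in large hyperplasias and 31.3 to 163 in tumors (median 106). Tgm5 had its highest signals in large hyperplasias, and the tumors differed from these by -0.83 (SE 0.25, adjusted p = 0.0061), the lone member of the list called lower in any comparison. Its level in large hyperplasias was also above that of every small hyperplasia, though not called (0.87, SE 0.29, adjusted p = 0.056), and it was called without large hyperplasia 4. Tgm3 read 16.4 to 222 in tumors and was called there against control tissue (2.16, SE 0.36, adjusted p = 1.1e-05) and against large hyperplasias (1.2, SE 0.34, adjusted p = 0.0042).

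Desmocollin 1 (Dsc1), desmoglein 1 (Dsg1a) and corneodesmosin (Cdsn) join the uppermost epidermal cells to each other. Dsc1 read 15.9, 2.76, 2.62 and 0.213 in control tissue, 374, 168, 385, 288 and 547 in small hyperplasias, 305, 578, 378, 334 and 433 in large hyperplasias and 895 to 3135 in tumors (median 2042). Dsg1a read 20.3, 4.42, 8.78 and 6.39 in control tissue, 199.7, 187, 179, 168 and 203 in small hyperplasias, 363, 438, 346, 267 and 313 in large hyperplasias and 237 to 1918 in tumors (median 540.1). Dsc1 kept tumors apart from large hyperplasias (2.07, SE 0.29, adjusted p = 2.1e-06), while Dsg1a overlapped and was not called (0.68, SE 0.34, adjusted p = 0.093). Dsg1a was called there without tumor 6, 8 or 11. Cdsn read 361, 474, 199 and 296 in control tissue, 192, 207, 235, 189 and 438 in small hyperplasias, 660.0, 753, 485, 429 and 352 in large hyperplasias and 298 to 1622 in tumors (median 438). Cdsn was well above the background limit on every control array, and control tissue overlapped with hyperplasias and tumors. Tumors differed from control by 0.66 (SE 0.31, adjusted p = 0.059), which was called without tumor 4 or 7 or control array 2. Large exceeded small hyperplasias by 1.06 (SE 0.34, adjusted p = 0.045), a call that was lost without any one of small hyperplasias 1 to 4 or large hyperplasias 1 to 4.

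Suprabasin, dermokine and keratinocyte differentiation-associated protein (Sbsn, Dmkn, Krtdap) are secreted by suprabasal cells and are encoded next to each other on chromosome 7. Sbsn read 348, 255, 323 and 313 in control tissue, 1073, 1016, 1109, 877 and 1916 in small hyperplasias, 2231, 2546, 2130, 1741 and 2011 in large hyperplasias and 2120 to 4987 in tumors (median 3730). Dmkn read 85.5, 19.03, 39.4 and 33.1 in control tissue, 879, 759.6, 1056, 709 and 1348 in small hyperplasias, 2138, 2041, 1662, 1219 and 1374 in large hyperplasias and 3523 to 6148 in tumors (median 4523). Krtdap read 50.8, 25.2, 7.95 and 16.6 in control tissue, 559.9, 535, 627, 387 and 969.7 in small hyperplasias, 1257, 1743, 1304, 755 and 1194 in large hyperplasias and 2488 to 5196 in tumors (median 3970). All 3 were called higher at each stage. Hyperplasias were above every control array, whereas large and small hyperplasias overlapped in all 3 genes. The steps from small to large hyperplasias were 0.87 (SE 0.19, adjusted p = 0.0063) for Sbsn, 0.82 (SE 0.22, adjusted p = 0.018) for Dmkn and 1.02 (SE 0.25, adjusted p = 0.012) for Krtdap. That of Dmkn was lost without small hyperplasia 4 or large hyperplasia 1 or 2. Another Sbsn probe set was not called from small to large hyperplasias (0.91, limma, adjusted p = 0.081), and a further one was (0.80, limma, adjusted p = 0.018). The steps from large hyperplasias to tumors were 0.72 (SE 0.16, adjusted p = 0.00066), 1.43 (SE 0.19, adjusted p = 8.4e-07) and 1.68 (SE 0.21, adjusted p = 6.0e-07) in the same order, with an overlap for Sbsn alone.

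Proteases of the upper epidermis fell into the same steps or came late. Kallikreins 5, 7 and 8 (Klk5, Klk7, Klk8) cut the upper desmosomes, and Spink5 encodes an inhibitor of kallikreins 5 and 7. Klk7 read 39.8, 5.13, 9.60 and 10.6 in control tissue, 503, 727, 722, 447 and 892 in small hyperplasias, 2237, 2402, 1755, 1023 and 1203 in large hyperplasias and 2004 to 3949 in tumors (median 3105). Klk8 read 29.02, 4.32, 18.6 and 21.8 in control tissue, 109.6, 57.01, 122, 88.9 and 108 in small hyperplasias, 256, 240.0, 162, 65.5 and 103 in large hyperplasias and 505 to 2157 in tumors (median 1162). Klk5 read 0.953, 4.55, 12.5 and 1.18 in control tissue, 18.8, 22.6, 39.8, 22.3 and 16.2 in small hyperplasias, 138, 121, 84.1, 42.7 and 46.4 in large hyperplasias and 73.1 to 638 in tumors (median 282). Klk7 was high in all hyperplasias and higher in large than in small ones (1.33, SE 0.25, adjusted p = 0.0022), as was Klk5 (1.28, SE 0.40, adjusted p = 0.044), while Klk8 was not called there (0.57, SE 0.37, adjusted p = 0.33). The call of Klk5 was lost without small hyperplasia 1, 2, 4 or 5 or large hyperplasia 1, 2 or 3. Spink5 read 1.78, 0.727, 1.39 and 1.40 in control tissue, 112, 90.3, 122, 96.8 and 127 in small hyperplasias, 268, 278, 186, 114 and 142 in large hyperplasias and 324 to 1564 in tumors (median 918). Tumors exceeded large hyperplasias by 1.55 (SE 0.34, adjusted p = 0.00054) for Klk5, 0.89 (SE 0.21, adjusted p = 0.0012) for Klk7, 2.72 (SE 0.31, adjusted p = 1.5e-07) for Klk8 and 2.20 (SE 0.24, adjusted p = 8.0e-08) for Spink5, without overlap for Klk8 and Spink5.

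Asprv1 is a retroviral-like protease that processes profilaggrin. Asprv1 read 6.62, 17.5, 3.74 and 17.1 in control tissue, 371, 299.7, 496, 356 and 676 in small hyperplasias, 1212, 1449, 1000, 545 and 735 in large hyperplasias and 1391 to 3628 in tumors (median 2270). Asprv1 stepped up from small to large hyperplasias (1.12, SE 0.27, adjusted p = 0.013) and from these to tumors (1.24, SE 0.23, adjusted p = 0.0001). Caspase 14 (Casp14) also processes filaggrin. Casp14 read 1.65, 2.22, 2.11 and 0.925 in control tissue, 25.4, 11.6, 16.3, 9.75 and 19.5 in small hyperplasias, 7.05, 51.2, 31.7, 25.6 and 28.5 in large hyperplasias and 138 to 1227 in tumors (median 333). Casp14 was under or near the background limit in hyperplasias and above all of them in tumors (3.4, SE 0.36, adjusted p = 4.6e-08). A second Casp14 probe set, whose probes can match several transcripts, differed less, by 0.72 (adjusted p = 0.013).

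The transcription factors Grhl1 and Grhl3 act in the upper epidermis, and Gsdma is a gasdermin of its upper layers and of hair follicles. Grhl1 read 69.96, 95.8, 60.6 and 109 in control tissue, 281, 216, 216, 221 and 259.8 in small hyperplasias, 396, 494, 371, 313 and 301 in large hyperplasias and 248 to 692 in tumors (median 407). Grhl1 was above control in every hyperplasia and did not differ by the test between tumors and large hyperplasias (0.14, SE 0.19, adjusted p = 0.56). Grhl3 read 22.4, 10.8, 22.8 and 23.3 in control tissue, 42.1, 29.3, 41.6, 35.97 and 60.3 in small hyperplasias, 69.7, 69.9, 50.4, 39.4 and 37.03 in large hyperplasias and 90.8 to 237 in tumors (median 147). Grhl3 was called higher in tumors than in large hyperplasias, by 1.27 (SE 0.17, adjusted p = 1.8e-06), with no overlap. Its call in small hyperplasias against control (0.69, SE 0.22, adjusted p = 0.017) was lost without control array 2. Gsdma read 17.6, 1.22, 0.919 and 1.57 in control tissue, 69.6, 95.8, 81.3, 63.2 and 99.3 in small hyperplasias, 234, 309, 234, 129 and 139 in large hyperplasias and 114 to 347 in tumors (median 229). Gsdma was higher in every large than in every small hyperplasia (1.15, SE 0.28, adjusted p = 0.011), and tumors and large hyperplasias did not differ by the test (0.15, SE 0.24, adjusted p = 0.61). A second Gsdma probe set was not called between large and small hyperplasias (0.93, limma, adjusted p = 0.053).

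**Figure D3:**
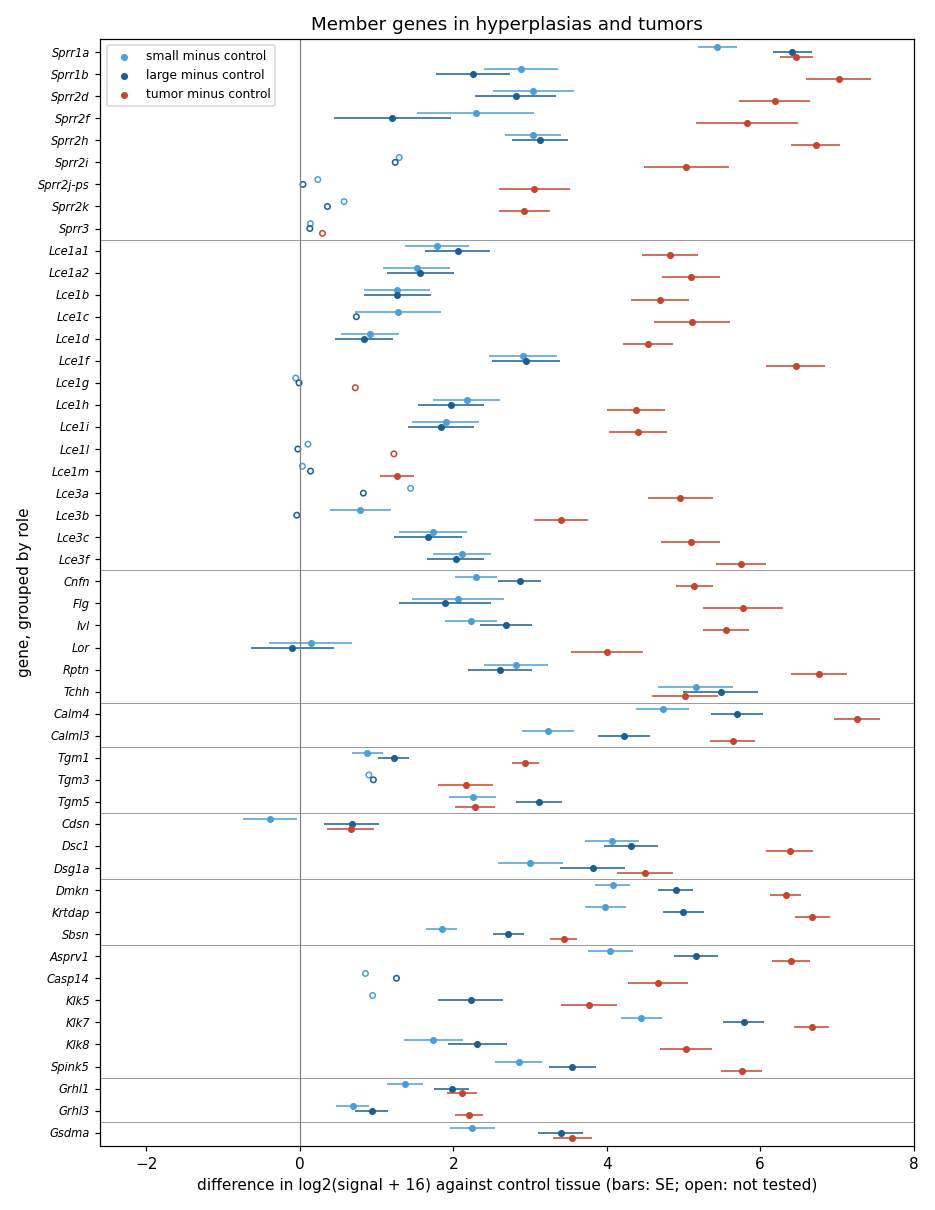
Difference in log2(signal + 16) from control tissue for the 50 genes (rows, grouped by role) in small hyperplasias, large hyperplasias and tumors; points are fitted differences, bars their standard errors, and open points were too low to be tested. For Sprr1a, Tchh, Gsdma and Grhl1 the large hyperplasia and tumor points lie close together, and for Lor, Sprr1b and Lce3b they are over 3 log2 units apart.

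The genes inside and outside the complex are compared by their medians at each step, as a description with no test. Of the 50 genes, 29 lie on chromosome 3 within the complex and 21 elsewhere, 7 of these on chromosome 7. The median difference of large hyperplasias from control tissue was 1.57 log2 units for the 29 and 3.12 for the 21. The median difference of tumors from large hyperplasias was 3.43 for the 29 and 1.41 for the 21. Between large and small hyperplasias 8 of the 9 called genes lay outside the complex, and the median was -0.08 inside and 0.82 outside. Inside it 1 gene was called, 20 were not called and 8 were not tested, and outside it these counts were 8, 11 and 2. Of all probe sets tested, 5.01% were called higher in that comparison. Inside the complex Sprr1a and Tchh had large differences from control tissue already in hyperplasias.

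The span of the complex from Lor to Tchh holds 7 further genes with a single-symbol probe set, which were looked up after the members' values were seen. Crct1, Prr9, Kprp, 2310050C09Rik and Hrnr were called higher in tumors than in control tissue, and Lelp1 and Smcp were too low to be tested. Prr9, a proline-rich gene, had medians of 787 in small hyperplasias, 1727 in large hyperplasias and 1708 in tumors, although it lies next to Lor. Hrnr, hornerin, had medians of 23.7, 11.1 and 728 in the same groups, and its neighbours Flg and Rptn were also far higher in tumors than in large hyperplasias.

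**Figure D4:**
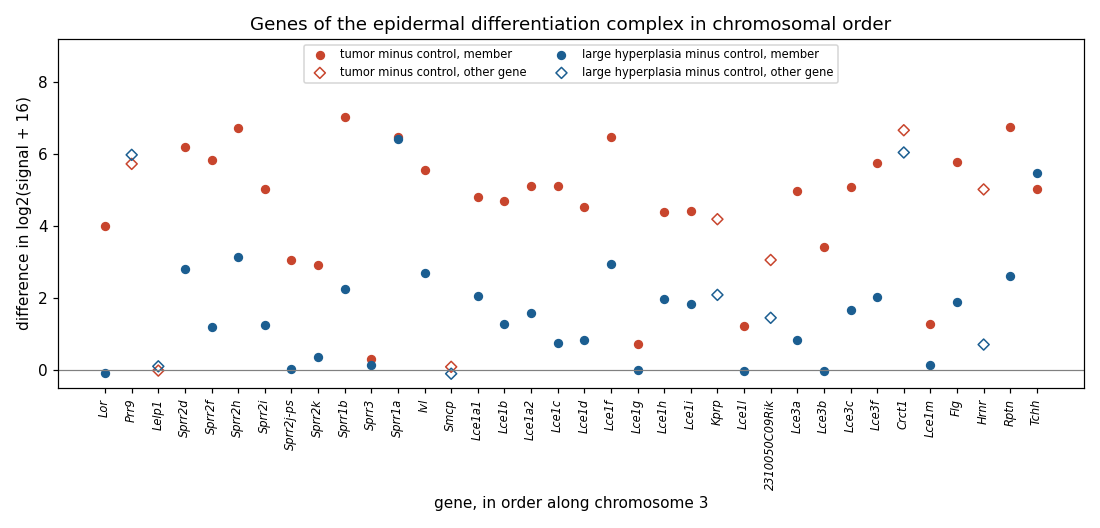
Difference in log2(signal + 16) from control tissue for tumors and large hyperplasias, in chromosomal order (x axis, not to scale). Shown are the 36 genes with a single-symbol probe set from Lor to Tchh, the span of the complex between its outermost members of the list. Filled circles are the 29 genes described and open diamonds the 7 others; the large hyperplasia point of Sprr1a, Prr9, Crct1 and Tchh is above 5, and most others lie below 3.

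Tumors differed among themselves. The standard deviation of log2(signal + 16) over the 11 tumors had a median of 0.67 for the 45 genes. The highest tumor exceeded the lowest 24.9-fold for Sprr2f, 24.6-fold for Sprr2i, 22.3-fold for Lor and 16.4-fold for Flg, but 1.66-fold for Sprr1a and 1.75-fold for Dmkn. Tumor 9 was the highest for 21 of the 45 genes and tumor 6 for 13, while tumor 11 was the lowest for 22. Tumor 9 also had the highest summed signal of the basal epithelial genes and of the adipocyte genes, and tumor 11 the lowest of the hair genes, and the part of these in the spread was not tested.

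Different families peaked in different tumors. Tumor 6 had the highest signal of all 4 Lce3 genes and all 6 Sprr2 genes, and the lowest of Lce1a2 and Lce1b. Tumor 9 had the highest signal of 7 of the 8 Lce1 genes, of Flg and of Ivl, and the lowest of Lce3a, Lce3f, Sprr2f and Sprr2j-ps. Relative to the median of the tumors, the mean over the Lce1 genes was -1.26 log2 units in tumor 6 and 1.05 in tumor 9. The mean over the Lce3 genes was 1.53 in tumor 6 and -0.78 in tumor 9, and that over the Sprr2 genes was 1.19 and -1.46. Tumor 5 was above the median for all 3 families, at 0.85, 0.65 and 0.32. Genes of a family are near copies and may share signal, so they are not independent readings of a tumor.

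**Figure D5:**
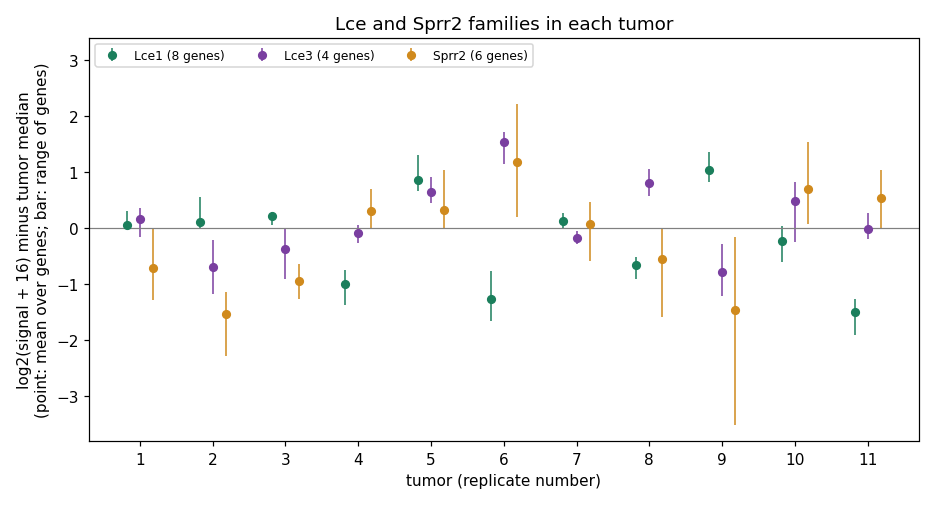
Mean of log2(signal + 16) minus the tumor median over 8 Lce1, 4 Lce3 and 6 Sprr2 genes (points) in each of the 11 tumors, with bars from the lowest to the highest gene. In tumor 6 Lce3 and Sprr2 are above 0 and Lce1 below, and in tumor 9 the order is turned.

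The hyperplasias also varied. Small hyperplasias 3 and 5 each had the highest signal of its group for 20 of the 45 genes, and large hyperplasia 2 for 33, while large hyperplasia 4 had the lowest for 32. Large hyperplasia 2 also had the highest summed signal of the hair genes and of the neutrophil genes in its group, and the lowest of the adipocyte genes. Their part was not tested.

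Other genes of squamous differentiation, taken from a list of keratins, envelope scaffolds, lipid-barrier enzymes and regulators, were also called higher. Of 38 on the array, 37 were tested and called higher in tumors against control tissue, as were 30 in large and 28 in small hyperplasias, and none was called lower. From large hyperplasias to tumors 29 of 37 were called higher. Over all probe sets tested the shares called higher were 33.2%, 25.6%, 16.8% and 21%, in the same order. Krt6b, a keratin of activated keratinocytes, read 0.602 to 14.9 in control tissue and had medians of 429.5 in small hyperplasias, 315 in large hyperplasias and 5819 in tumors. Krt1, the keratin of the first suprabasal layers, had medians of 129 in small hyperplasias, 128 in large hyperplasias and 3403 in tumors. Cst6, a cysteine protease inhibitor of the epidermis, was at a median of 5095 in large hyperplasias and 3277 in tumors and was not called between them (adjusted p = 0.44).

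Marker genes of other cell types also differed between the tissue groups. They were taken from lists chosen with results of these arrays known. All 6 adipocyte genes were called lower in tumors than in control tissue, and their summed signal was 40930 to 44497 on control arrays, 19513 to 25726 for small hyperplasias, 15231 to 20047 for large ones and 696 to 6182 for tumors. All 7 basal epithelial genes were called higher, with sums of 1265 to 1769 in control tissue and 9837 to 15326 in tumors. Of 8 luminal genes 5 were called lower and 3 were not called. Of all probe sets tested in tumors against control tissue, 33.2% were called higher and 35.9% lower. All 6 neutrophil genes were called higher in tumors, led by S100a8 and S100a9, which keratinocytes also express, with sums of 70.1 to 330 in control tissue and 8106 to 16505 in tumors. All 4 lymphocyte genes were called higher in large hyperplasias against control tissue and lower in tumors than in large hyperplasias. The shares of all probe sets called in these directions were 25.6% and 32.9%. Of 6 skeletal muscle genes 3 were called higher in tumors and 1 lower, and of 4 sebaceous genes the 1 that could be tested was called lower. All 6 melanocyte genes were under 30 in control tissue and 5 of 6 in tumors. The part of these cell types in the results above was not tested.

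In sorted basal cells Myc read 1479, 1677 and 1869 in control cells and 141, 428 and 42.3 in cells labelled K5creMycL/L, a log2 difference of -3.4 (SE 0.54) that was not called (limma, adjusted p = 0.25). The basal epithelial genes were all present, with sums of 16283 to 17782 in control and 17668 to 23090 in Myc-deficient cells. Few genes of the cornified envelope were above background in either: 7 to 10 of the 50 reached a signal of 30 per control array and 5 to 7 per Myc-deficient array. That left 9 that could be tested. Neither a higher nor a lower gene was called by limma, and none of the 19737 probe sets tested was (0% higher, 0% lower), although 1259 passed an unadjusted p below 0.05. Of the 9 genes, 1 passed that limit, Dmkn, at 53.7, 51.7 and 132 in control cells and 52.6, 2.01 and 17.4 in Myc-deficient cells (-1.36, SE 0.54, adjusted p = 0.75). The methods' t-test called none, adjusted or not. The methods' rule, a higher median of at least 30 and a ratio of medians over 2 with no test, called 5 genes. By log2 ratio of medians these were Sprr1a (-1.55), Asprv1 (-1.37), Dmkn (-1.63) and Tchh (-1.31), lower in Myc-deficient cells, and Lce3c (1.04), higher. Tchh read 32.9, 12.1 and 37.9 in control and 9.68, 16.6 and 13.3 in Myc-deficient cells, and Lce3c read 44.6, 18.5 and 12.3 in control and 33.5, 37.9 and 48.3 in Myc-deficient cells, so both overlapped.

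Among the genes present in sorted cells, Tgm1 read 281, 120.4 and 123 in control and 169, 229 and 133 in Myc-deficient cells. Calml3 read 47.4, 81.2 and 125 in control and 93.8, 21.3 and 96.7 in Myc-deficient cells. Sbsn read 181, 16.5 and 167 in control and 116, 62.3 and 153 in Myc-deficient cells. The groups overlapped in all 3. Sprr1a read 132, 52.98 and 11.2 in control cells and under 30 on every Myc-deficient array, a difference of -1.08 (SE 0.58, adjusted p = 0.81). Asprv1 read 99.3, 33.4 and 59.7 in control and 23.03, 10.5 and 45.03 in Myc-deficient cells (-0.92, SE 0.48, adjusted p = 0.8). Both groups overlapped for Sprr1a and Asprv1, and a p that misses the threshold does not show that the cells were alike.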

How the data were processed

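RNA from 25 mammary tissue samples and from 6 samples of sorted basal cells was hybridized to 1-colour Affymetrix mouse arrays. The authors scaled MAS 5.0 signals in Affymetrix Expression Console so that the trimmed mean (2% at each end) was 100, and the deposited table holds these linear intensity values. Its version was not found in the sources used here. Tissue RNA and sorted-cell RNA were amplified with different kits and were never set against each other. Of 45101 probe sets, 64 controls were left out.

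Groups followed the labels. Log2(signal + 16) was fitted with limma 3.58.1 in R 4.3.3 (lmFit, contrasts.fit, eBayes with trend), the 25 tissue arrays in 1 fit and the 6 sorted-cell arrays in another. Testing was limited to probe sets whose higher group median reached 30, and Benjamini-Hochberg adjustment ran over all tested probe sets. Values on single arrays are given for genes whose highest tissue group median was at least 100, and at most 4 genes of every other list are named, those with the largest difference between tumors and control tissue. Genes and lists were chosen with earlier results of these data known. Promoters are those of RefSeq. Scripts were tested on simulated data. The number of arrays limits the precision, and the highest Spearman correlation between any 2 arrays was 0.966, so no array was counted as a copy. Replicate numbers paired the sorted samples, whose same-numbered arrays deviated together (correlations 0.27, 0.31 and 0.37). The differences, SE and p-values given for sorted cells come from the fit without this pairing. Alternatives were the offset, a floor, the filter, quantile normalization, the choice of probe set, the samples fitted, the methods' t-test, the methods' rule (higher median of at least 30 and a ratio over 2), a replicate block and leaving out each array. Figures were drawn with matplotlib 3.10.9.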

Additional observations from a re-analysis of the deposited data

Results flagged for a closer look

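For the 45 genes given by array, the control, small hyperplasia and large hyperplasia groups were examined wherever an array reached a signal of 30. In 12 of these 100 sets 1 array stood apart from its group by Dixon's test on the linear signals. Its limit is passed in about 1 set in 20 for independent, normally distributed values. These sets share arrays and linear signals need not be normally distributed, so the 12 cannot be held against that rate. Small hyperplasia 3 was the array in 7 of them. It read 948 for Sprr2f (28.9 to 93.1 on the other 4), 948 for Sprr2d, 449 for Rptn, 239 for Lce3c, 238 for Lce3f, 120.0 for Lce3a and 39.8 for Klk5. Without this array the call of Sprr2f in small hyperplasias against control tissue was lost (adjusted p = 0.088, limma). Small hyperplasia 5 stood apart for Cdsn (437.5) and Sbsn (1916). Large hyperplasia 2 stood apart for Rptn (266) and Sprr1b (162), and control array 1 for Klk7 (39.8). All 12 were the highest of their group. Their causes were not tested.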

How the results depend on the processing

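No gene and no count reversed its direction under any alternative run. The number of genes called higher ranged from 39 to 48 in tumors against control tissue, from 29 to 37 in large and from 28 to 36 in small hyperplasias against control tissue, and from 33 to 42 in tumors against large hyperplasias. With 1 array left out the ranges were 45 to 47, 34 to 36, 32 to 36 and 39 to 41, and 6 to 11 for large against small hyperplasias, where lower calls ranged from 0 to 1. Large against small hyperplasias moved most: 9 higher calls became 2 with no offset, 15 when only both groups were fitted, 0 by the methods' t-test with adjustment and 15 without it. Lower calls there were 0, became 1 by the methods' t-test without adjustment and 3 by the methods' rule. That rule also gave 0 lower calls, in place of 1, in tumors against large hyperplasias, and 1 higher and 4 lower in sorted cells, where limma gave 0 and 0. Causes were not tested. Replicate numbers did not pair the tissue samples (correlations of deviations from -0.22 to 0.15). A replicate block gave 45, 37, 36 and 42 higher calls in the first 4 comparisons and 14 in large against small hyperplasias, and in sorted cells, where the numbers pair the samples, it changed no call. Over single genes, 72 calls were gained and 67 lost across all alternatives. Signals under 30 lie near background, so low genes in control tissue have only bounds, and probe sets with shared probes limit the distinction of Sprr2, Lce1 and Lce3 genes.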
